A study of Mus musculus and Homo sapiens with 10 samples.

Results

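The regions described here are the 935 stretches of the human genome, each shorter than 6000 bp, at which the trimethyl mark on lysine 4 of histone H3 (H3K4me3) was called lower in MDA-MB-231-Luc cells after knockdown of CBX8. They come from the authors' deposited list of 1241 lower regions and were selected on 2 measured values, the authors' call of a loss and the length, counted as the end position plus 1 minus the start position. They made up 75.3% of that list (95% Clopper-Pearson interval 72.8 to 77.7%). Another 306 lower regions were 6000 bp or longer, and 2611 regions were called higher, of which 2526 were under 6000 bp. The 306 included the only listed region on chromosome M, the mitochondrial genome. Both human lists together held 3852 regions, and 32.2% of them were on the lower list. Of the 3461 listed regions under 6000 bp, 935 were lower (95% interval 25.5 to 28.5%). How many regions were tested and left off both lists was not given in the files or labels, so these percentages are shares of changed regions. Because direction and length chose the regions, both are given as description only.

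MDA-MB-231 cells are a long-established line from a human breast cancer. The comparison set 1 library from cells carrying a lentiviral pLKO.1 hairpin against CBX8 beside 1 library from cells carrying a scrambled hairpin (shScr), whose genotype is labelled wild type. Puromycin selection at 2 ug/ml began 2 days after infection and lasted at least 4 days, and micrococcal nuclease was used to cut the chromatin into mononucleosomes before immunoprecipitation. Sequencing gave single-end reads 100 bp long. The labels do not say which hairpin was used, and the level of CBX8 itself was not measured in these data. With 1 library per condition there is no replicate check of any call, and the lists carry no read count, fold or q-value per region, so depth and the size of each loss are unknown.

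H3K4me3 is placed by methyltransferase complexes that contain WDR5, and in most cell types it forms a peak over the start of active genes, often spread over the first nucleosomes on both sides of the start. CBX8 is a chromodomain subunit of Polycomb repressive complex PRC1, which is best known for binding the repressive mark H3K27me3. The title of the study pairs CBX8 with WDR5 in mammary tumour formation, and the comparison asks where H3K4me3 changed once CBX8 was reduced.

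Regions of this size are of the order of a promoter peak, but whether they lie at gene starts could not be checked, because no annotation of hg19, the build of the human lists, was used here. They are therefore called short lower regions in what follows, and are named by position (hg19, counted from 1) and not by gene. For the same reason no sequence of a region is printed and the counts over gene lists were not run.

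The short lower regions had a median length of 3900 bp and an interquartile range of 3100 to 4800 bp, and together they covered 3.67 Mb. None was shorter than 1000 bp. Only 34 of the 935 were under 2000 bp, and the fullest kilobase was 3000 to 3999 bp, with 292 regions. The higher regions under 6000 bp were spread over shorter lengths, with 406 under 1000 bp and 1081 from 1000 to 1999 bp. Any contrast between the 2 lists therefore also compares lengths. The contrasts of clusters and of neighbouring regions below are repeated over regions from 3000 bp to under 6000 bp. That window held 736 short lower and 507 higher regions. Lengths still differed within it, with 292 of the 736 and 286 of the 507 at 3000 to 3999 bp.

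**Figure D1:**
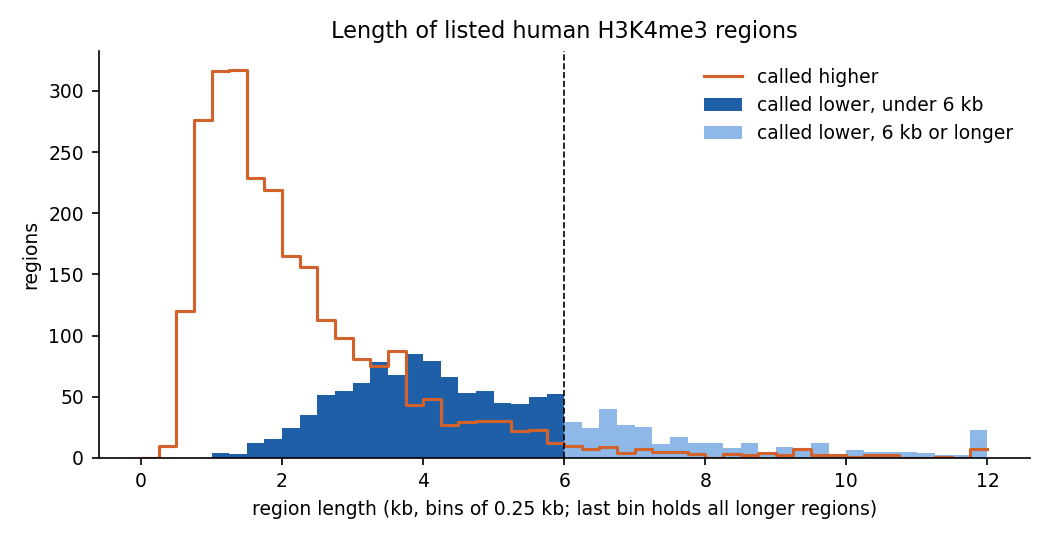
Number of listed human H3K4me3 regions (vertical axis) by length in kb (horizontal axis, bins of 0.25 kb), with regions called lower as bars and regions called higher as a line. The dashed line marks 6 kb, where the lower list was divided; short lower regions pile up around their median of 3900 bp and the division falls on a slope without a gap.

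The bound at 6000 bp did not fall in a gap of the distribution. Just inside it, 11 short lower regions measured 5950 bp. Of these, 2 lay on chromosome 2 (145272351 to 145278300 and 235400001 to 235405950), 2 on chromosome 3 (107240651 to 107246600 and 165177901 to 165183850) and 1 on chromosome 5 (139778001 to 139783950). Chromosome 10 held 3 more, at 23727201 to 23733150, 32664151 to 32670100 and 112675801 to 112681750. Regions of that length also began at 104322301 on chromosome 12 and at 8054801 on chromosome 17. Just outside, 5 lower regions measured 6000 bp, on chromosome 4 (83817401 to 83823400), chromosome 5 (39421001 to 39427000), chromosome 8 (38030901 to 38036900), chromosome 13 (76052451 to 76058450) and chromosome 14 (67706501 to 67712500). At the other end, the shortest of all lay on chromosome 12 (15063001 to 15064000, 1000 bp). It was followed by 1150 bp on chromosome 11 (122699851 to 122701000), 1150 bp on chromosome 12 (110868901 to 110870050), 1200 bp on chromosome 7 (121924601 to 121925800) and 1350 bp on chromosome 20 (44002051 to 44003400).

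Short lower regions were present on all autosomes and on chromosome X, and most numerous on chromosomes 6 (94 regions), 1 (86) and 19 (75). As a share of all listed regions of a chromosome they were 24.3% genome-wide. Chromosome 19 stood highest, with 75 of 149 listed regions or 50.3% (95% interval 42.0 to 58.6%). It was followed by chromosome 14 with 66 of 166 or 39.8% (32.3 to 47.6%), chromosome 16 with 29 of 78 or 37.2% (26.5 to 48.9%) and chromosome 6 with 94 of 312 or 30.1% (25.1 to 35.6%). On chromosome 6, 35 of the 94 lay in the stretch from 26 to 29 Mb, which held only 50 of the 312 listed regions. The other 59 made up less than the genome-wide share of the regions listed outside that stretch. The lowest shares were 11.6% of 43 on chromosome 21 (3.89 to 25.1%), 14.3% of 119 on chromosome 9 (8.55 to 21.9%) and 14.7% of 75 on chromosome 18 (7.56 to 24.7%). By base pairs covered in place of regions counted, the share was 20.4% on chromosome 21 and 18.1% on chromosome 9, so chromosome 21 was no longer the lower of these 2. In the same way chromosome 16, at 46.4%, passed chromosome 14, at 41.6%, while chromosome 19 stood at 54.2%. The intervals of chromosomes 14, 16 and 6 overlapped each other, and that of chromosome 19 overlapped those of chromosomes 14 and 16. These intervals count regions as independent, which neighbouring regions are not, and the chromosomes were picked for their rank, so the order was not tested.

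**Figure D2:**
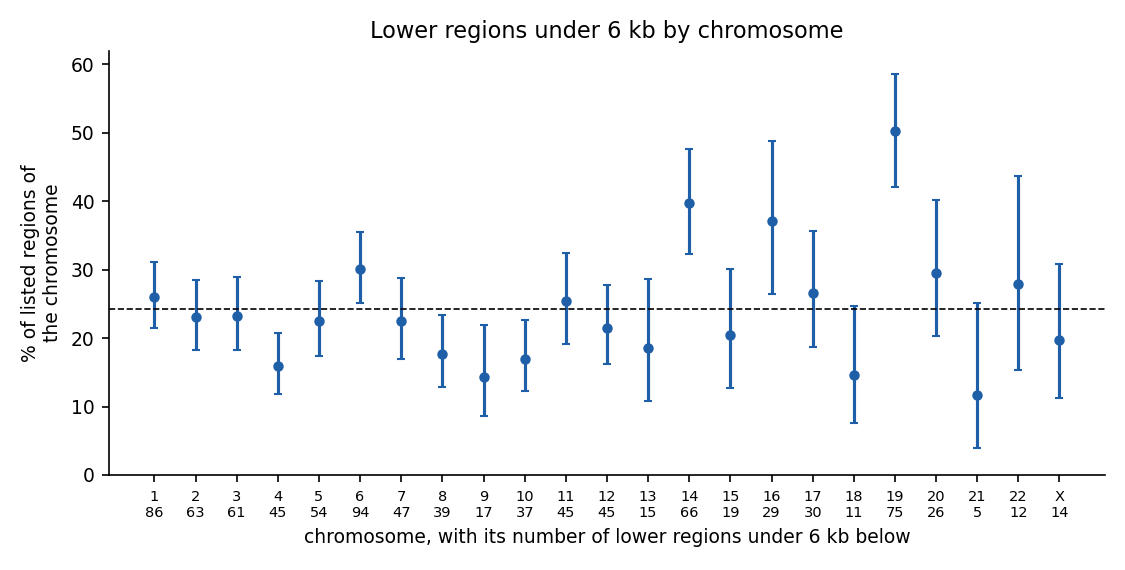
Short lower regions as a percentage of all listed regions of each chromosome (points, vertical axis), with exact 95% binomial intervals as bars and the number of short lower regions under each chromosome name. The dashed line is the genome-wide 24.3%; chromosomes 19, 14, 16 and 6 have intervals wholly above it and chromosomes 4, 8, 9 and 10 wholly below it.

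Short regions also made up different shares of the lower regions of each chromosome, beside 75.3% of the whole list. On chromosome 16, 29 of 30 lower regions were under 6000 bp (96.7%, 95% interval 82.8 to 99.9%). The share was 92.3% on chromosome 22 (12 of 13, 64.0 to 99.8%) and 88.2% on each of chromosomes 19 (75 of 85, 79.4 to 94.2%) and 17 (30 of 34, 72.5 to 96.7%). At the low end it was 55.6% on chromosome 21 (5 of 9, 21.2 to 86.3%), 62.7% on chromosome 10 (37 of 59, 49.15 to 74.96%) and 64.3% on chromosome 4 (45 of 70, 51.9 to 75.4%). Chromosome 14, which also had many lower regions for its number of listed ones, was close to the whole list, with 74.2% of 89. Most of these intervals overlapped, and the differences were not tested.

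Most short lower regions stood alone. The median gap from one to the next nearest on its chromosome, counted edge to edge, was 484.8 kb (interquartile range 134.3 to 1643 kb, n = 935), and 594 (63.5%) had another within 1 Mb. The gap to the nearest lower region of 6000 bp or longer had a median of 2584 kb, but there were only 306 of those. With a chain drawn wherever the gap was at most 100 kb, 734 regions were in no chain and 201 (21.5%, 95% interval 18.9 to 24.3%) fell into 77 clusters of 2 or more. Of these clusters, 51 were pairs and 26 held 3 or more regions, for 99 regions in all. Short lower regions of under 3000 bp were in clusters in 28.1% of 199 cases, against 20.5% of 292 from 3000 to 3999 bp, 18.6% of 253 from 4000 to 4999 bp and 19.9% of 191 from 5000 bp up. Clustered regions had a median length of 3800 bp and lone ones 3950 bp. Of the 2526 higher regions under 6000 bp, 28.4% (26.7 to 30.2%) were in clusters of their own kind, more than the 21.5% of short lower regions. With neighbours also limited to the length window from 3000 bp to under 6000 bp, the order was the other way. The shares were 16.3% of 736 short lower (13.7 to 19.2%) and 8.88% of 507 higher regions (6.55 to 11.7%). With neighbours of any length the first order held for the same regions. Of the 736, 22.3% had another lower region within 100 kb, and of the 507, 33.3% had another higher one. A share of this kind grows with the number of regions laid out. That number was larger for the higher regions in the first and last contrasts and for the lower ones in the second. None of these differences was tested.

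**Figure D3:**
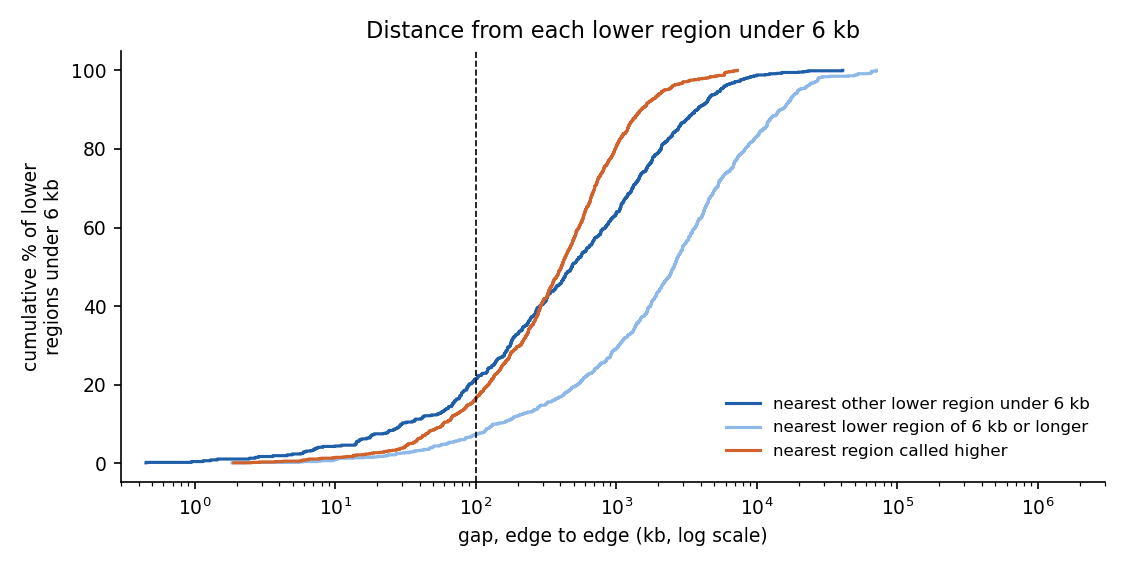
Cumulative percentage of the short lower regions (vertical axis) by edge-to-edge gap in kb on a log scale (horizontal axis) to the nearest other short lower region, the nearest lower region of 6 kb or longer and the nearest region called higher. The dashed line is the 100 kb limit for a cluster; at it the curves stand at 21.5%, 7.27% and 16.4%, and the curves for other short lower and higher regions cross between there and their medians of 484.8 and 406.35 kb.

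Clusters were most common on chromosomes 19 and 6, without regard to the length of a chromosome. At a fixed gap of 100 kb a clustered share grows with the density of regions, for which the shares below were not corrected. On chromosome 19, 34 of 75 short lower regions (45.3%) lay in 14 clusters, and on chromosome 6, 41 of 94 (43.6%) lay in 10 clusters. Of those 41, 31 lay in the chromosome 6 stretch from 26 to 29 Mb. Most of the 59 short lower regions elsewhere on chromosome 6 were in no cluster. Chromosome 17 had 13 of 30 in 5 clusters (43.3%) and chromosome 14 had 19 of 66 in 8 clusters (28.8%). On chromosome 3 only 2 of 61 were clustered, on chromosome 8 only 2 of 39, and chromosomes 13, 21, 22 and X had 0 clusters. Of the 26 clusters of 3 or more, 7 were on chromosome 6, 6 on chromosome 19 and 3 each on chromosomes 14 and 17. The stretch from 26 to 29 Mb held 5 of the 7 on chromosome 6.

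The 2 largest clusters lay close together on the short arm of chromosome 6, a part of the genome known for its large families of histone genes and transfer RNA genes. Which of those genes, if any, the regions hold was not determined. The largest spanned 244.8 kb (28563651 to 28808450) and held 10 short lower regions of 2400 to 5050 bp. Its first 3 lay at 28563651 to 28567150, 28609451 to 28612500 and 28615351 to 28617750. A lower region of 6300 bp (28623251 to 28629550) and 1 higher region of 1100 bp (28653851 to 28654950) came next, and the other 7 short lower regions followed between 28692801 and 28808450 with nothing else listed among them. Within that stretch a pair was separated by 1150 bp (28757301 to 28760600 and 28761751 to 28764950). The second cluster spanned 278.15 kb (27444951 to 27723100) and held 9 short lower regions of 1950 to 5600 bp, with gaps of 6950 to 58850 bp and no other listed region inside. Short lower regions thus covered 13.6% of the length of the first and 11.6% of the second.

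The chromosome 6 stretch from 26 to 29 Mb, which holds both clusters, contained 35 short lower regions, 7 longer lower ones and 8 higher ones, and 31 of the 35 were in clusters. It was known from earlier results to be rich in lower regions, so its count is not independent support. The other 59 short lower regions of chromosome 6 lay outside it. Without the stretch, 18.9% of the remaining short lower regions were in clusters and the median gap was 536.9 kb.

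The next clusters in size were on chromosomes 1, 11 and 5. On chromosome 1, 5 short lower regions spanned 159.25 kb (161424401 to 161583650), with the middle 3 packed at 161492901 to 161495050, 161496501 to 161502150 and 161508851 to 161512050. A higher region of 1000 bp (161535401 to 161536400) lay between them and the last. On chromosome 11, 5 spanned 244.65 kb (62356751 to 62601400) with gaps of 30200 to 84750 bp, and a lower region of 7950 bp lay among them. On chromosome 5, 4 regions of 4800, 2700, 5400 and 5800 bp spanned only 59.9 kb (180630801 to 180690700), covered 31.2% of it, and lay 5855 kb from the nearest higher region. It comes before the other clusters of 4 because ties were ordered by smaller span.

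**Figure D4:**
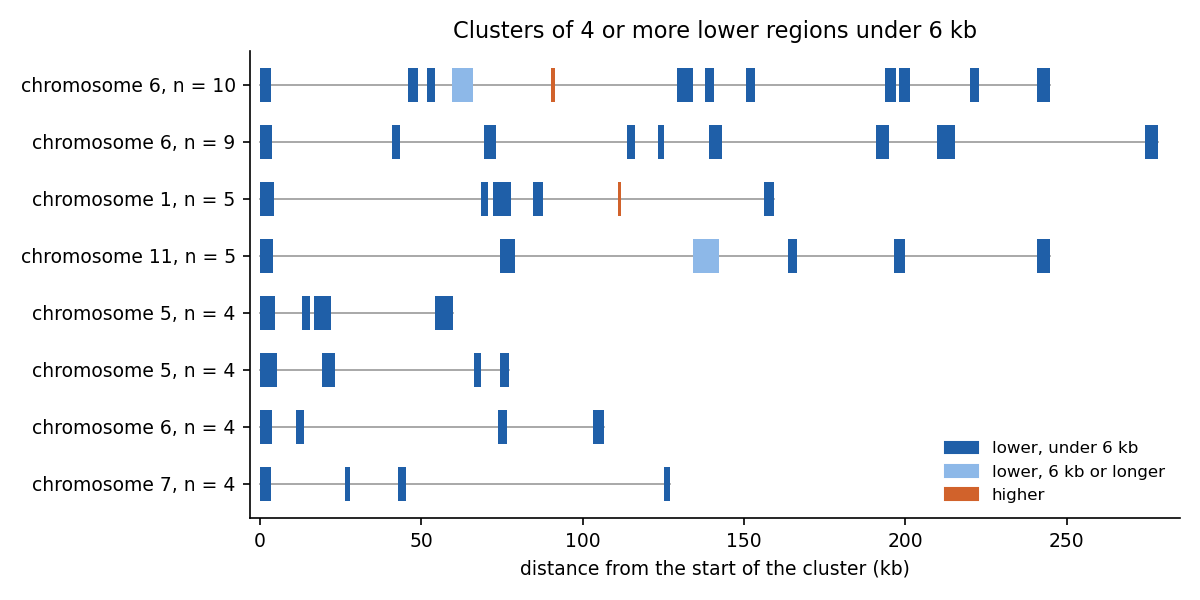
The 8 clusters of 4 or more short lower regions, each drawn to scale from its own start (horizontal axis, kb), with short lower, longer lower and higher regions as boxes of different colour. The 2 largest clusters, both on chromosome 6, hold 10 and 9 short lower regions. No higher region lies in 6 of the 8, and how often other spans of their size hold none was not counted.

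Beside those 5, other clusters of 4 lay on chromosome 5 (140023451 to 140100600), chromosome 6 (27143901 to 27250450) and chromosome 7 (148636501 to 148763400). On chromosome 5 the regions measured 5400, 4000, 1950 and 2850 bp, and the chromosome 7 regions were short, with a median of 2125 bp. The cluster of 3 with the smallest span lay on chromosome 14 (35006751 to 35026650), where regions of 3550, 2750 and 3350 bp filled 48.5% of 19.9 kb. Another on chromosome 6, outside the stretch above, filled 48.9% of 27.7 kb (33255051 to 33282750). These were chosen after their values were seen. A higher region lay inside 2 of the 26 clusters of 3 or more, the largest on chromosome 6 and that on chromosome 1, and a longer lower region inside 3. None of the 26 spanned more than 278.15 kb, less than the median gap of 406.35 kb from a short lower region to a higher one. That median covers all short lower regions. It was 318.35 kb for those in clusters of 2 or more and 424.275 kb for lone ones, so clustered regions lay nearer to higher ones. The difference was not tested. How often other spans of that size hold a higher region was not counted.

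Some short lower regions were separated by narrow gaps. The smallest gap between any 2 was 450 bp, on chromosome 6 (26532401 to 26534400 and 26534851 to 26540450). The next were 950 bp on chromosome 5 (180643751 to 180646450 and 180647401 to 180652800), the 1150 bp given above, 1300 bp on chromosome 14 (58706201 to 58707900 and 58709201 to 58714350) and 1450 bp on chromosome 1. Joined across its gap, each of these 5 pairs would span 7650 to 9250 bp and fall outside the bound of 6000 bp. Only 22 of the 935 had another short lower region within 5000 bp, so such close pairs were few. The pairs were chosen after their gaps were seen.

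Most short lower regions had a region called higher within 1 Mb, and few had one within 5000 bp. The median gap to the nearest higher region was 406.35 kb (95% order-statistic interval 362.9 to 445.1 kb, interquartile range 156.4 to 817.2 kb). It was within 5000 bp for 5 regions (0.53%), within 50 kb for 79 (8.45%) and within 1 Mb for 754 (80.6%). The gap varied little with length, with medians of 411.1 kb under 3000 bp, 365.5 kb from 3000 to 3999 bp, 474.55 kb from 4000 to 4999 bp and 402.3 kb from 5000 bp up, and intervals that overlapped. For the 305 lower regions of 6000 bp or longer with a higher region on their chromosome, the median was 296.95 kb (240.5 to 347.85 kb). Their interval and that of the short ones did not overlap, and the difference was not tested. Gaps within 5000 bp were rare in other contrasts too. Another short lower region lay that near to 2.35% of short lower regions, and a higher region to 0.98% of longer lower ones. Among higher regions under 6000 bp, 3.40% had another higher region that near and 0.28% a lower one.

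The 5 closest pairs of opposite direction were under 5000 bp apart. On chromosome 6 a short lower region of 3300 bp (50783001 to 50786300) was followed after 1900 bp by a higher region of 2050 bp (50788201 to 50790250). On chromosome 2 a lower region of 4750 bp (33358501 to 33363250) came 2550 bp after a higher region of 550 bp. On chromosome 7 a lower region of 3850 bp (100769251 to 100773100) came 2900 bp after a higher region of 1000 bp. A lower region of 4000 bp on chromosome 14 (105498601 to 105502600) lay 3750 bp beyond a higher region of 10650 bp (105484201 to 105494850), the only long higher region among these 5. The fifth lay on chromosome 8 (136468751 to 136473300), 4250 bp before a higher region of 2650 bp. In the next 5 pairs the gaps were 5700 bp on chromosome 6 (lower region at 74361901 to 74365400), 5800 bp on chromosome 6 (30456751 to 30459850), 6000 bp on chromosome 14 (51132051 to 51137400), 6350 bp on chromosome 11 (66110851 to 66116650) and 6500 bp on chromosome 6 (128837501 to 128843100). Each of these 10 short lower regions was 129.7 kb or more from the nearest other one, so none of them was in a cluster.

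Short lower regions were next set against whatever listed region lay closest. The nearest one of any kind was lower for 487 of the 935 (52.1%, 95% interval 48.8 to 55.3%), against 32.2% of all listed regions, and 401 of these neighbours were themselves short lower regions. The 32.2% is taken over all chromosomes, while a neighbour must lie on the same chromosome. Lower regions were 85 of 149 listed on chromosome 19 and 24 of 119 on chromosome 9, and no share was corrected for such differences. Another short lower region was nearer than any higher region for 439 (47.0%), although higher regions were the more numerous. Counting the next listed region on each side, 883 of 1856 neighbours were lower, or 47.6% (45.3 to 49.9%). Among 921 short lower regions with a neighbour on both sides, 234 had lower regions on both (25.4%) and 279 higher regions on both (30.3%). The share of lower neighbours was 45.7% (43.4 to 48.1%) without the chromosome 6 stretch and 94.3% (66 of 70) inside it.

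Over regions from 3000 bp to under 6000 bp, 45.9% of the neighbours of short lower regions were lower (43.3 to 48.5%) and 29.5% of those of higher regions (26.7 to 32.5%). Around lower regions of 6000 bp or longer the share was 40.5% (36.6 to 44.5%). A tendency of adjacent regions to share direction was seen earlier in these lists, so these values describe it for the short lower regions and do not support it independently. A region can be counted as a neighbour more than once, the intervals take neighbours as independent, and the differences were not tested.

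**Figure D5:**
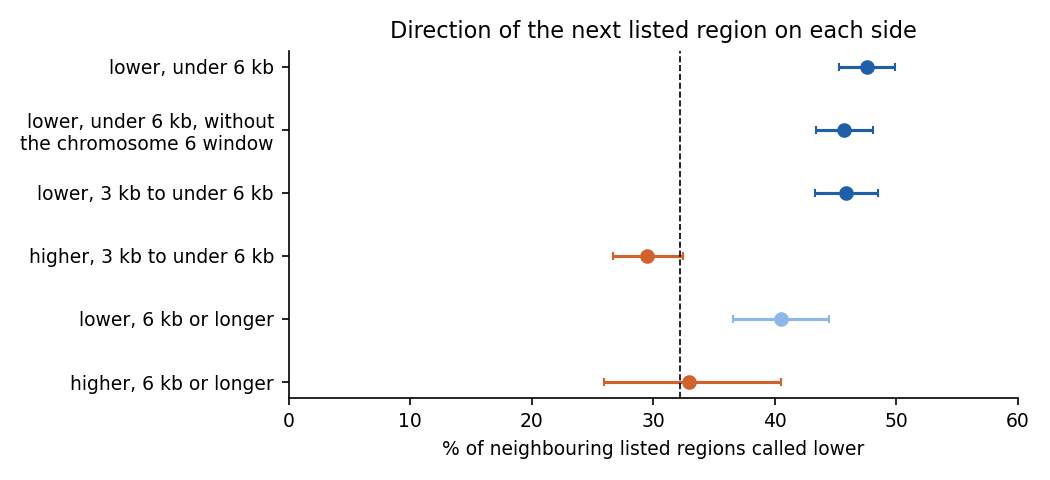
Percentage of neighbouring listed regions that were called lower (horizontal axis), taking the next listed region on each side, for classes of regions by direction and length (rows), with exact 95% binomial intervals. The dashed line is the 32.2% of all listed regions; short lower regions stand at 47.6%, or 45.7% without the chromosome 6 stretch from 26 to 29 Mb, and higher regions from 3000 bp to under 6000 bp at 29.5%.

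Unbroken runs of lower regions, with no higher region between, show the same regions at larger scale. The longest run held 16 lower regions, 13 of them short, over 0.619 Mb of chromosome 6 (27143901 to 27762900). Outside that stretch, a run on chromosome 14 held 12 lower regions over 4.40 Mb (57045301 to 61449800), of which 7 were short. On chromosome 16 all 11 lower regions of a run over 10.3 Mb were short (14725401 to 25027750). Chromosome 19 held a run of 10 with 9 short over 1.62 Mb (49312201 to 50936300) and a run of 8, all short, over 1.15 Mb (45346601 to 46500200). The chromosome 16 run was sparse, while the chromosome 19 runs were dense. In the second chromosome 19 run, 7 short lower regions of 2950 to 5550 bp stood within 850.9 kb (45346601 to 46197500). Each was no more than 250 kb from the next. That no higher region lay among them follows from the definition of a run. Runs of a single lower region were the most frequent, with 408 of all runs. These runs were chosen after their values were seen.

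The most isolated short lower regions were far from any listed region. On chromosome 6, 1 of 3650 bp (80245651 to 80249300) was 3.78 Mb from the nearest listed region of either direction. It was followed by 4050 bp on chromosome 7 (61967151 to 61971200, 3.59 Mb), 4950 bp on chromosome X (5394251 to 5399200, 2.97 Mb), 3500 bp on chromosome X (114826701 to 114830200, 2.64 Mb) and 4550 bp on chromosome 9 (45725301 to 45729850, 2.59 Mb). The nearest listed region was a higher one for the chromosome 7 region and for both on chromosome X, and another short lower region for that on chromosome 9. Whether reads can be placed in the sequence in and around these regions was not examined. In windows of 1 Mb, 648 held at least 1 short lower region and 476 held exactly 1. Of the 648, 276 held no higher region and 372 held at least 1. The share of all windows that held a higher region was not counted, so these counts have no background beside them.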

How the data were processed

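The authors deposited the human data as 2 lists of region positions in hg19, lower and higher in the shCBX8 library than in shScr. Per the name of each list the q-value was 0.002. Per the submitters' processing notes, the tools were Bowtie 1.0.0, SICER, MACS2 2.1.0 and FastQC 0.10.0; which tool called the changed regions, any scaling for depth and the use of the input library are not given in the sources used here. All positions lay on a grid of 50 bp, and 0 listed regions overlapped. Starts were read as counted from 0 with the end included. A call depends on that unknown depth and scaling, and absence from a list does not show that a site kept its H3K4me3.

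The regions, gene lists and most summaries were chosen with earlier results of these data known. Gaps were counted edge to edge on the same chromosome. Clusters were chains with gaps of at most 100 kb. Shares carry 95% Clopper-Pearson intervals and medians carry order-statistic intervals; both cover counting error over regions only. No test was run, because each condition had 1 library. Positions named in the text are the 10 longest and 5 shortest regions, 5 just outside the bound, the 5 largest clusters, the 10 nearest to a higher region and the 5 most isolated; others are said to be chosen later. Gap code was tested on simulated data, where all 1921 gaps equalled those of bedtools 2.31.1. Intervals came from scipy 1.17.1 and numpy 2.4.6, tables from pandas 2.3.3 and plots from matplotlib 3.10.9 under Python 3.11.15. Gene-based counts planned for the regions were not run, since no hg19 annotation was used here.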

Additional observations from a re-analysis of the deposited data

How the results depend on the processing

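Of 31 alternative values over 11 results, 22 stayed inside the interval of the value they replace and 9 did not. The share of the lower list taken in was 75.3% by the bound of 6000 bp, 59.95% with 5000 bp and 39.6% with 4000 bp, which follows from the bound. The share in clusters was 21.5% with gaps of up to 100 kb, 12.3% with 50000 bp, 37.2% with 250000 bp and 18.9% without chromosome 6 from 26 to 29 Mb. The median gap between short lower regions, 484.8 kb, became 371.8 kb to the nearest lower region of any length. Over regions of 3000 bp or more, chosen after seeing the data, it was 778.5 kb, a sparser set by construction. The median gap to a higher region was 461.65 kb when only higher regions of at least 1000 bp counted. Lower neighbours were 51.3% when limited to those within 1000000 bp, also chosen later. The shares of chromosomes 19, 14, 16, 6, 21 and 9, the only ones recomputed, stayed inside their intervals by base pairs covered and with regions merged within 100000 bp, but chromosome 21 moved from 11.6% to 20.4% by base pairs. The start-site and gene-share alternatives were not run. No paired analysis was possible because each condition had 1 library. Depth is unknown, so weak losses cannot be told from absent ones.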
